A study of Mus musculus with 9 samples.

Results

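Pluripotent stem cells keep their identity through a set of transcription factors that bind together at enhancers of their own genes and of each other. The 10 genes described here are regulators of pluripotent cells, most of them such factors: Pou5f1 (OCT4, a POU-domain factor that binds the octamer), the nuclear receptors Esrrb and Nr5a2, Tfcp2l1, the T-box factor Tbx3, Prdm14 (a PR-domain repressor of differentiation genes), the zinc-finger genes Zfp42 (REX1), Sall4 and Sall1, and Lin28a, an RNA-binding protein that blocks processing of let-7 microRNAs. CTCF is a zinc-finger protein that halts loop extrusion by cohesin, the ring complex to which RAD21 belongs, so that pairs of CTCF sites, often with motifs that face each other, come to lie at the feet of chromatin loops. H3K27ac marks active promoters and enhancers, and contacts that carry it join promoters with enhancers or with other promoters.

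The members were taken by name, and a listed interaction was assigned to a gene when either of its bins overlapped the gene body plus 5 kb on each side, on mm10 with GENCODE M21 gene models. They are 10 of 21938 protein-coding genes. All cells were E14 mouse embryonic stem cells with the label CTCF AID, that is, with an auxin-inducible degron on CTCF, in serum-free medium with LIF, the MEK inhibitor PD0325901 and the GSK3 inhibitor CHIR99021, so the untreated controls carry the degron as well. H3K27ac was profiled without IAA (2 libraries) and after 12 h of IAA, the auxin that triggers degradation of a degron-tagged protein (2 libraries). CTCF (2 libraries) and RAD21 (3 libraries) were profiled without IAA. The remaining CTCF protein was not analysed here, and nothing in the labels says whether the line is 1 clone.

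MNase HiChIP ligates DNA ends that lie close together after micrococcal nuclease digestion and then enriches them with an antibody. The authors' data hold 1 list of called interactions for each of the 4 groups, pooled over its libraries, so the values carry no replicate error and the spread between libraries of a group is unknown. A pair of bins that is missing from a list did not pass the authors' call there, which is not the same as having no contacts. The lists hold 36274 untreated and 28210 IAA pairs of 2-kb bins for H3K27ac, and 49630 CTCF and 23630 RAD21 pairs of 1-kb bins. Of 10 embryonic stem cell marker genes, 10 had untreated H3K27ac pairs, with a median of 41 per gene, against 1 of 4 primed epiblast, 1 of 5 endoderm, 1 of 5 mesoderm, 2 of 5 neural, 3 of 5 trophoblast and 2 of 5 feeder fibroblast markers. The highest count among those other markers was 15, at Tfap2c. The embryonic stem cell markers include the members Pou5f1, Esrrb and Zfp42, with 44, 121 and 38 untreated pairs. Of all protein-coding genes 42% had an untreated pair.

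Of the 10 members, 9 had H3K27ac pairs in both lists, and in the lists as deposited each of the 9 had fewer after IAA. In all, 402 distinct pairs were listed without treatment and 310 after IAA; 203 were in both, 199 in the untreated list only and 107 in the IAA list only. The share of untreated member pairs called again was 50.5% (95% Wilson interval 45.6 to 55.4, counting error only), and 42.9% of all untreated pairs were called again. In the other direction, 65.5% (60.0 to 70.6) of the members' IAA pairs were already listed without treatment, against 55.1% of all IAA pairs. These shares are not matched for contacts: member pairs had a median of 17 contacts in both lists, all pairs 13 untreated and 14 after IAA. The part of contacts in the difference was not tested. Fewer pairs after IAA was the usual case: among the 1719 protein-coding genes with at least 10 untreated pairs, 83.2% had fewer, with a median ratio of 0.706. The untreated list is also the longer one. With both lists cut to equal length by p-value, the members had 334 and 310 pairs: 5 genes had fewer after IAA, Pou5f1 (38 and 43) and Zfp42 (33 and 35) had more, and Tfcp2l1 (43 in each) and Sall1 (53 in each) had as many. Of all genes in that comparison 57.1% then had fewer. Where each anchor was allowed to differ by 1 bin, 78.9% of the members' untreated pairs had a counterpart after IAA, against 65.7% of all untreated pairs.

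Counts per gene differed widely. Esrrb had 121 untreated and 89 IAA pairs, and only 4 protein-coding genes had more untreated pairs. Counts were not scaled to the window, which grows with the gene: Esrrb is 161 kb long and Pou5f1 4.75 kb. With bins within 2 kb of a start site only, Esrrb had 25 untreated pairs. That was fewer than Tbx3 (34), Zfp42 (30), Sall1 (27) and Pou5f1 (26), and more than Tfcp2l1 (22) and the genes with few pairs. Counts in the full window follow. Sall1 had 61 and 53, Tbx3 60 and 38, Tfcp2l1 49 and 43, Pou5f1 44 and 43, and Zfp42 38 and 35. Far below these stood Prdm14 with 11 and 3, Sall4 with 11 and 4, and Nr5a2 with 7 and 2. Lin28a had 0 in both H3K27ac lists, also when the window was widened to 10 kb. For comparison, 42.0% of all protein-coding genes had an untreated pair, with a median of 3 among those that did.

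**Figure D1:**
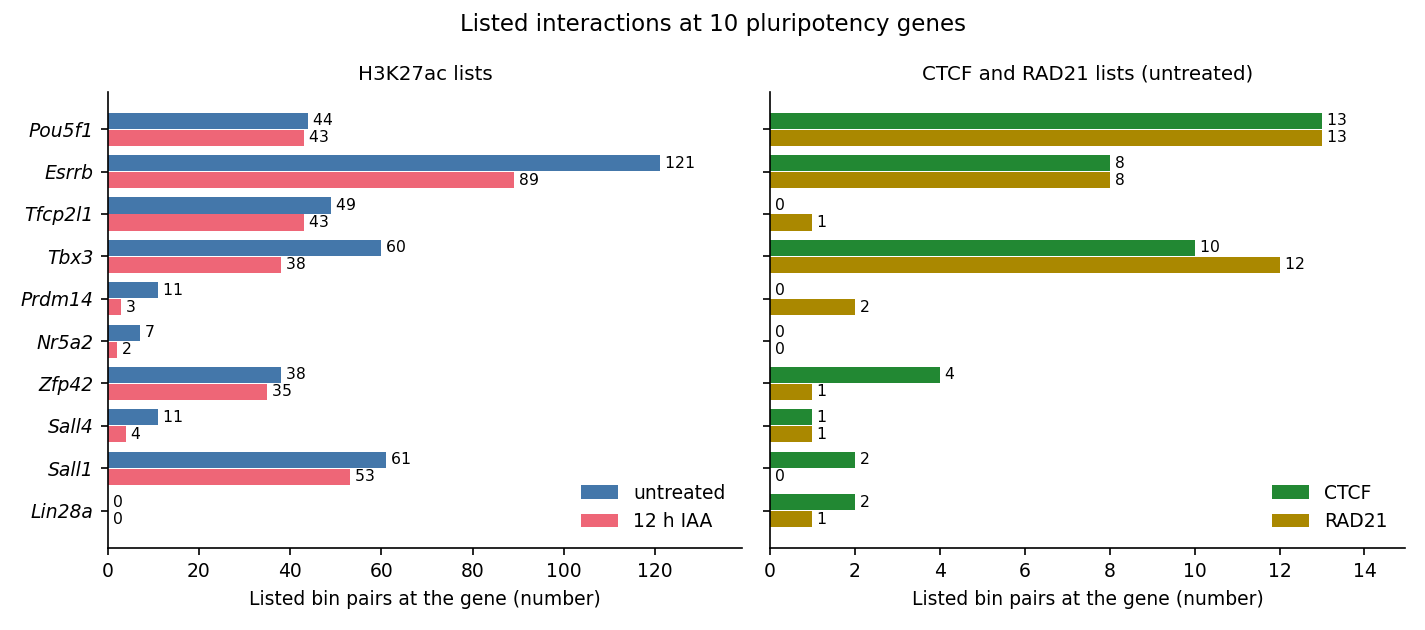
Number of listed bin pairs at each of the 10 genes (horizontal axes) in the untreated and IAA H3K27ac lists (left) and in the untreated CTCF and RAD21 lists (right), 1 pooled list per group. Esrrb is highest for H3K27ac with 121 and 89 pairs, Pou5f1 for CTCF and RAD21 with 13 each, and Lin28a has bars on the right only.

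The share called again differed widely between the genes. It was 70.5% (55.8 to 81.8) for Pou5f1, 60.5% (44.7 to 74.4) for Zfp42, 55.7% (43.3 to 67.5) for Sall1 and 53.1% (39.4 to 66.3) for Tfcp2l1. Esrrb was at 48.8% (40.0 to 57.6) and Tbx3 at 40.0% (28.6 to 52.6). The genes with few pairs were lowest, at 27.3% (9.75 to 56.6) for Sall4, 18.2% (5.14 to 47.7) for Prdm14 and 14.3% (2.57 to 51.3) for Nr5a2. All these intervals count each pair as independent, although pairs of a gene share bins, so they can be too narrow. At Pou5f1, for example, 12 of the 44 untreated pairs shared the start-site bin. The intervals of neighbouring genes in this order overlapped. That of Pou5f1 lay above those of Prdm14 and Nr5a2. The intervals of Pou5f1 and Tbx3, both with many pairs, did not overlap either. They stayed apart with at least 10 contacts, with lists of equal length and with a tolerance of 1 bin, and overlapped with the gene body alone (33.2 to 76.9 and 29.3 to 54.9), with 10 kb on each side (48.6 to 73.5 and 29.0 to 52.7), with bins within 2 kb of a start site (50.0 to 83.5 and 26.4 to 57.8) and at a q-value of 0.01 or less (56.0 to 84.2 and 33.3 to 60.8). Pairs in both lists also had more contacts, with a median of 21 untreated contacts against 13 for the untreated-only and 12 IAA contacts for the IAA-only pairs, and they were shorter, with a median span of 20 kb against 28 and 36 kb.

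**Figure D2:**
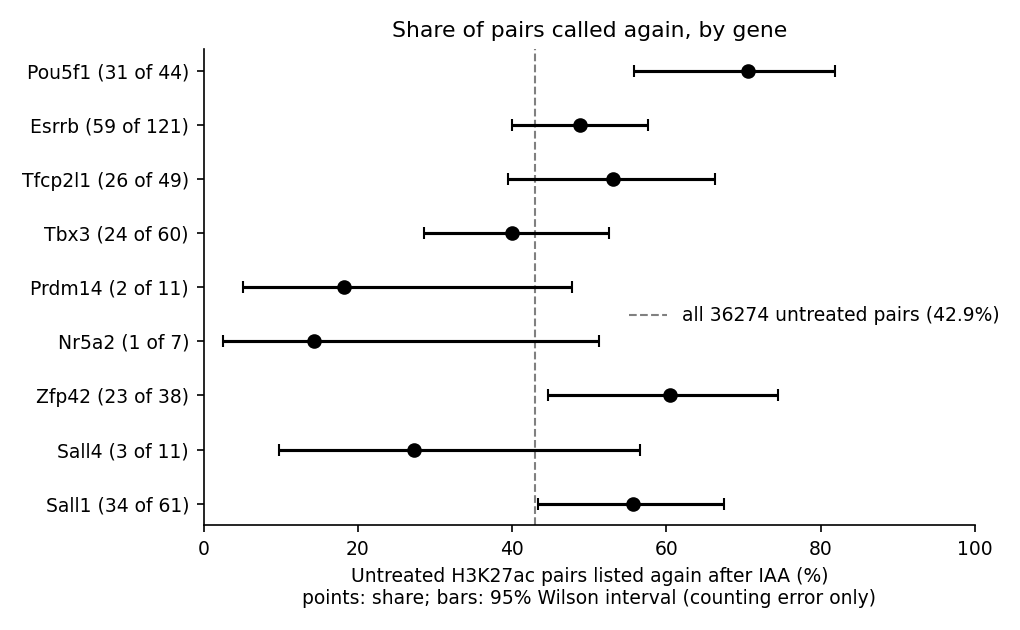
Share of each gene's untreated H3K27ac pairs that were listed again after IAA (horizontal axis, percent), with 95% Wilson intervals for counting error and the counts beside the gene name. The dashed line is the share over all untreated pairs, 42.9%; Pou5f1 and Zfp42 lie above it with their whole intervals, as does Sall1 by a small margin.

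In the pairs called both times the contacts were close to equal in sum. Over the 203 shared member pairs there were 5483 contacts without treatment and 5309 after IAA, a log2 ratio of -0.02 (-0.07 to 0.04, counting error only) relative to the totals over all 15551 shared pairs. Single pairs ranged from -1.36 to 1.41, with 99 above 0 and 104 below. In an exact two-sided binomial test of the 2 contact counts, with Benjamini-Hochberg adjustment over all shared pairs, 0 member pairs had an adjusted p under 0.05, the smallest being 0.48. At an unadjusted p under 0.05 there were 10 of the 203 member pairs, near the 4.41% of all shared pairs. Over all shared pairs 0.135% passed the adjusted threshold, 15 of 21 being higher after IAA. This test compares 2 pooled libraries, not the conditions, and pairs that dropped below the call are not in it. With scaling by the contacts in the authors' models the ratios of all pairs shift by -0.25, the members' sum comes to -0.27, and 1 member pair passes, at Tbx3 (below). Over all shared pairs 60 pass with this scaling, 6 higher and 54 lower after IAA, so the direction of the calls depends on it.

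**Figure D3:**
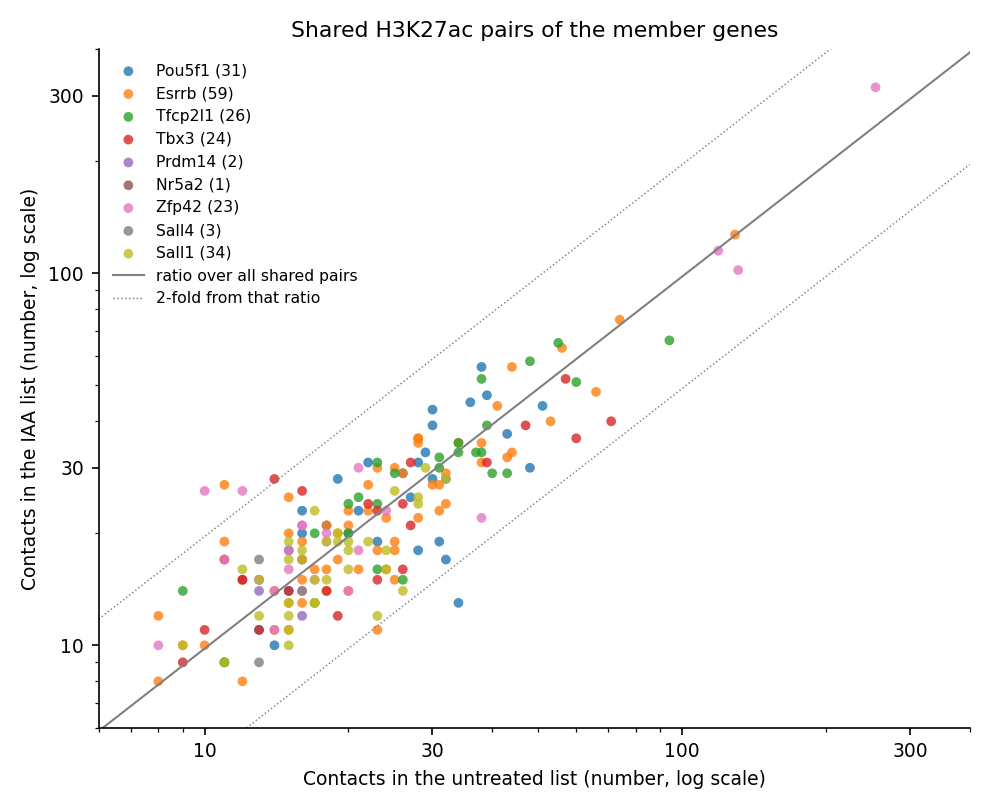
Contacts of each of the 203 shared member H3K27ac pairs in the untreated list (horizontal, log scale) and the IAA list (vertical, log scale), coloured by gene, with the number of pairs in brackets. The solid line is the ratio of totals over all 15551 shared pairs and the dotted lines are 2-fold from it; nearly all points lie between the dotted lines, with Pou5f1, Esrrb, Tbx3 and Zfp42 points at the edges.

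Few of the members' H3K27ac pairs lay exactly on the bins of a CTCF pair. On a CTCF-list bin pair lay 15 untreated member pairs, 3.73% (2.27 to 6.06), against 6.23% of all untreated pairs, and on a RAD21-list bin pair lay 18, 4.48% (2.85 to 6.97), against 5.68%. These shares depend on exact bins: where each anchor may differ by 1 bin they were 13.2% on a CTCF pair and 10.4% on a RAD21 pair, against 13.1% and 13.2% of all untreated pairs. Of the 15, 7 were called again after IAA (46.7%, 24.8 to 69.9), where 32.6% of all such pairs were, and of the 18 on a RAD21 pair 12 were called again (66.7%, 43.7 to 83.7), where 40.6% of all were. Of the members' 107 IAA-only pairs, 0 lay on a CTCF or a RAD21 pair, and over all IAA-only pairs 1.46% lay on a CTCF and 0.924% on a RAD21 pair. A CTCF-list anchor lay strictly between the 2 bins in 52.0% of untreated member pairs and 53.5% of IAA member pairs, beside 49.0% and 48.3% over all pairs of the lists.

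The CTCF and RAD21 lists held 40 and 39 member pairs, 11 of them on the same 1-kb bins. Pou5f1 had 13 and 13, Tbx3 10 and 12, Esrrb 8 and 8, Zfp42 4 and 1, and Sall4 1 and 1. Sall1 had 2 CTCF pairs and 0 RAD21 pairs, Lin28a 2 and 1. Prdm14 had 0 CTCF and 2 RAD21 pairs, Tfcp2l1 0 and 1, and Nr5a2 0 in both. With 10 kb on each side the order changed: Tbx3 had 23 CTCF and 22 RAD21 pairs, Pou5f1 13 and 15, Sall4 11 and 7, and Prdm14 6 and 4, while the other 6 genes kept their counts. Where a CTCF anchor held a match to the motif core (14 bases, at most 1 mismatch, either strand), the sequence could be read. Such a match was in 41.7% of all CTCF-list anchor bins and in 5.15% of the same bins moved by 10 kb. The anchors of the Pou5f1 and Esrrb pairs below are shown because both ends hold a core and the pair had most contacts of such pairs at its gene; each run reads 5′ to 3′ on the strand of the core, which is in capitals.
Pou5f1 upstream anchor, chr17:35484239-35484282, plus strand, intergenic: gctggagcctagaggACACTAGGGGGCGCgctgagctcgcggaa
Pou5f1 downstream anchor, chr17:35514059-35514102, minus strand, intron of Tcf19: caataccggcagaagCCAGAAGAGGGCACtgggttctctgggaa
Esrrb distant anchor, chr12:86132953-86132996, plus strand, intron of Ift43: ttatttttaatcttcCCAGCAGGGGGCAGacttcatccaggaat
Esrrb intronic anchor, chr12:86402910-86402953, minus strand: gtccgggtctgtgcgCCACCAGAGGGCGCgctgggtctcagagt
In both of these pairs the left core is on the plus strand and the right core on the minus strand, so the cores face each other. This was not so in every pair: leaving out Lin28a, 8 member CTCF pairs had a core at both ends, 7 at Pou5f1 and 1 at Esrrb, of which 5 faced each other. The other Pou5f1 pairs had cores on the same strand, at chr17:35484001-35485000 with chr17:35506001-35507000 (30 contacts) and at chr17:35509001-35510000 with chr17:35514001-35515000 (42 contacts), or cores on both strands at 1 end, at chr17:35514001-35515000 with chr17:35578001-35579000 (23 contacts). A match is a description and not a measured binding site. The letters come from the mm10 genome sequence.

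Pou5f1 (chr17:35506018-35510772, plus strand, ENSMUSG00000024406.16) had a group of upstream contacts that was listed almost alike with and without IAA. Between the block of adjoining bins chr17:35484001-35494000, outside protein-coding genes, and the block around the gene, chr17:35500001-35518000, there were 26 untreated and 24 IAA pairs, 20 in both, with 571 and 561 contacts in the shared ones (log2 ratio 0.00, -0.17 to 0.17). The pair with most untreated contacts joined chr17:35490001-35492000 with chr17:35504001-35506000, the bin just before the start site, with 51 contacts and 44 after IAA. After IAA the top pair ran from chr17:35486001-35488000 to the same bin, with 38 untreated and 56 IAA contacts (unadjusted p = 0.0628, exact binomial test). The start-site bin itself had 12 untreated and 8 IAA pairs.

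The left edge of that upstream block is the CTCF anchor printed above. Its bin chr17:35484001-35485000 carried the strongest CTCF pair of all members, 117 contacts to chr17:35514001-35515000 in Tcf19 over 30 kb where the authors' model predicted 11.1, and 66 RAD21 contacts on the same bins. From the same bin a CTCF pair reached the 3′ part of Pou5f1, at chr17:35509001-35510000, with 73 contacts, and its RAD21 counterpart had 67. Of the 6 shared H3K27ac pairs of the bin chr17:35484001-35486000, 5 had fewer contacts after IAA. The 30-kb pair had 34 untreated and 13 IAA contacts, the lowest ratio of any shared member pair (log2 -1.36, -2.40 to -0.40, unadjusted p = 0.00316, adjusted p = 0.48, exact binomial test). The pair that ends in the bin chr17:35508001-35510000 of Pou5f1 had 32 and 17 (unadjusted p = 0.0449, adjusted p = 1, exact binomial test), the one at the start-site bin 28 and 18, and the one just before the start site 43 and 37. With the gene body alone, without the 5 kb on each side, Pou5f1's summed log2 ratio was -0.17 in place of 0.03.

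A CTCF-list anchor lay between the bins of 13 of Pou5f1's 13 untreated-only pairs, 17 of its 31 shared and 11 of its 12 IAA-only pairs. Over all pairs these shares were 53.4%, 43.1% and 54.7%, and over all members 54.8%, 49.3% and 61.7%. At Esrrb and Sall1 the untreated-only pairs had the lower share, 59.7% against 67.8% of shared pairs and 25.9% against 44.1%. Pairs over 412 and 414 kb were listed after IAA alone, with 8 contacts each, from the Pou5f1 block to the bin chr17:35916001-35918000 at the start sites of Mrps18b and Ppp1r10. The window also takes in Tcf19, whose pairs cannot be told apart from those of Pou5f1 in the bins they share.

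Esrrb (chr12:86361117-86521628, plus strand, ENSMUSG00000021255.17) had most of its pairs inside the gene. Of 121 untreated pairs 112 had both bins in the window, and 98 lay within 1 block of adjoining bins, chr12:86460001-86514000, which was left with 61 after IAA. The 51 of these that were in both lists had 1518 and 1444 contacts (log2 ratio -0.04, -0.15 to 0.06). The pair with most contacts in both lists joined the intronic bin chr12:86498001-86500000 with chr12:86504001-86506000, with 129 and 127. The untreated-only pair with most contacts, 51, joined the same intronic bin with chr12:86506001-86508000.

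A single intronic bin, chr12:86502001-86504000, took part in 24 untreated and 26 IAA pairs. Its coverage, the read count the authors give for a bin, was 20010 and 20462, and only 3 of 27304 bins in the untreated list had more. Of the 4 annotated start sites, the one at position 86470117 lay in a bin with 15 untreated and 9 IAA pairs, with 451 and 250 contacts. Its coverage was 7069 and 6810. The other 3 start sites, at 86361117, 86421644 and 86421883, lay in bins with 0 H3K27ac pairs in either list.

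Long pairs of Esrrb were more numerous after IAA and short ones less so. Pairs of 300 kb or more numbered 9 without treatment and 20 after IAA, while pairs with both bins in the window went from 112 to 68. These counts are from the lists as deposited, of which the untreated one is longer. Pairs that long numbered 10 and 3 at Tfcp2l1, 4 and 3 at Tbx3, 1 and 0 at Nr5a2 and 0 and 2 at Pou5f1. The share of such long pairs over all pairs of the lists is not given here, so none of these counts can be set against it. The median span of Esrrb pairs was 22 kb untreated and 28 kb after IAA, beside 24 and 22 kb over all pairs. From Esrrb to the block chr12:86912001-86920000, between Irf2bpl and Cipc, there were 5 untreated and 9 IAA pairs. The 4 shared ones had 41 and 57 contacts (log2 ratio 0.50, -0.10 to 1.12). Among them was the shared Esrrb pair with the largest rise in ratio, from the most covered intronic bin to chr12:86916001-86918000 over 414 kb, with 11 and 27 contacts (log2 1.32, 0.27 to 2.48, unadjusted p = 0.0089, adjusted p = 0.688, exact binomial test). The block chr12:86800001-86804000 had 0 untreated and 3 IAA pairs, with 40 contacts.

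None of the Esrrb CTCF pairs reached those distant blocks. The anchor chr12:86402001-86403000 in an intron, whose core is printed above, had 4 CTCF pairs, the longest over 270 kb to Ift43 with 9 CTCF and 12 RAD21 contacts. A second intronic CTCF anchor, chr12:86508001-86509000, lay inside the dense block, near its right end, and had 3 pairs, with 23 contacts in the strongest. On 2 of these 3 lay H3K27ac pairs of 24 and 34 contacts in the untreated list, from chr12:86496001-86498000 and chr12:86498001-86500000, and both were missing from the IAA list. By contrast, the 3 Esrrb pairs on a RAD21 pair, between chr12:86496001-86500000 and chr12:86502001-86506000, had 74, 56 and 129 untreated contacts and 75, 63 and 127 after IAA.

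**Figure D4:**
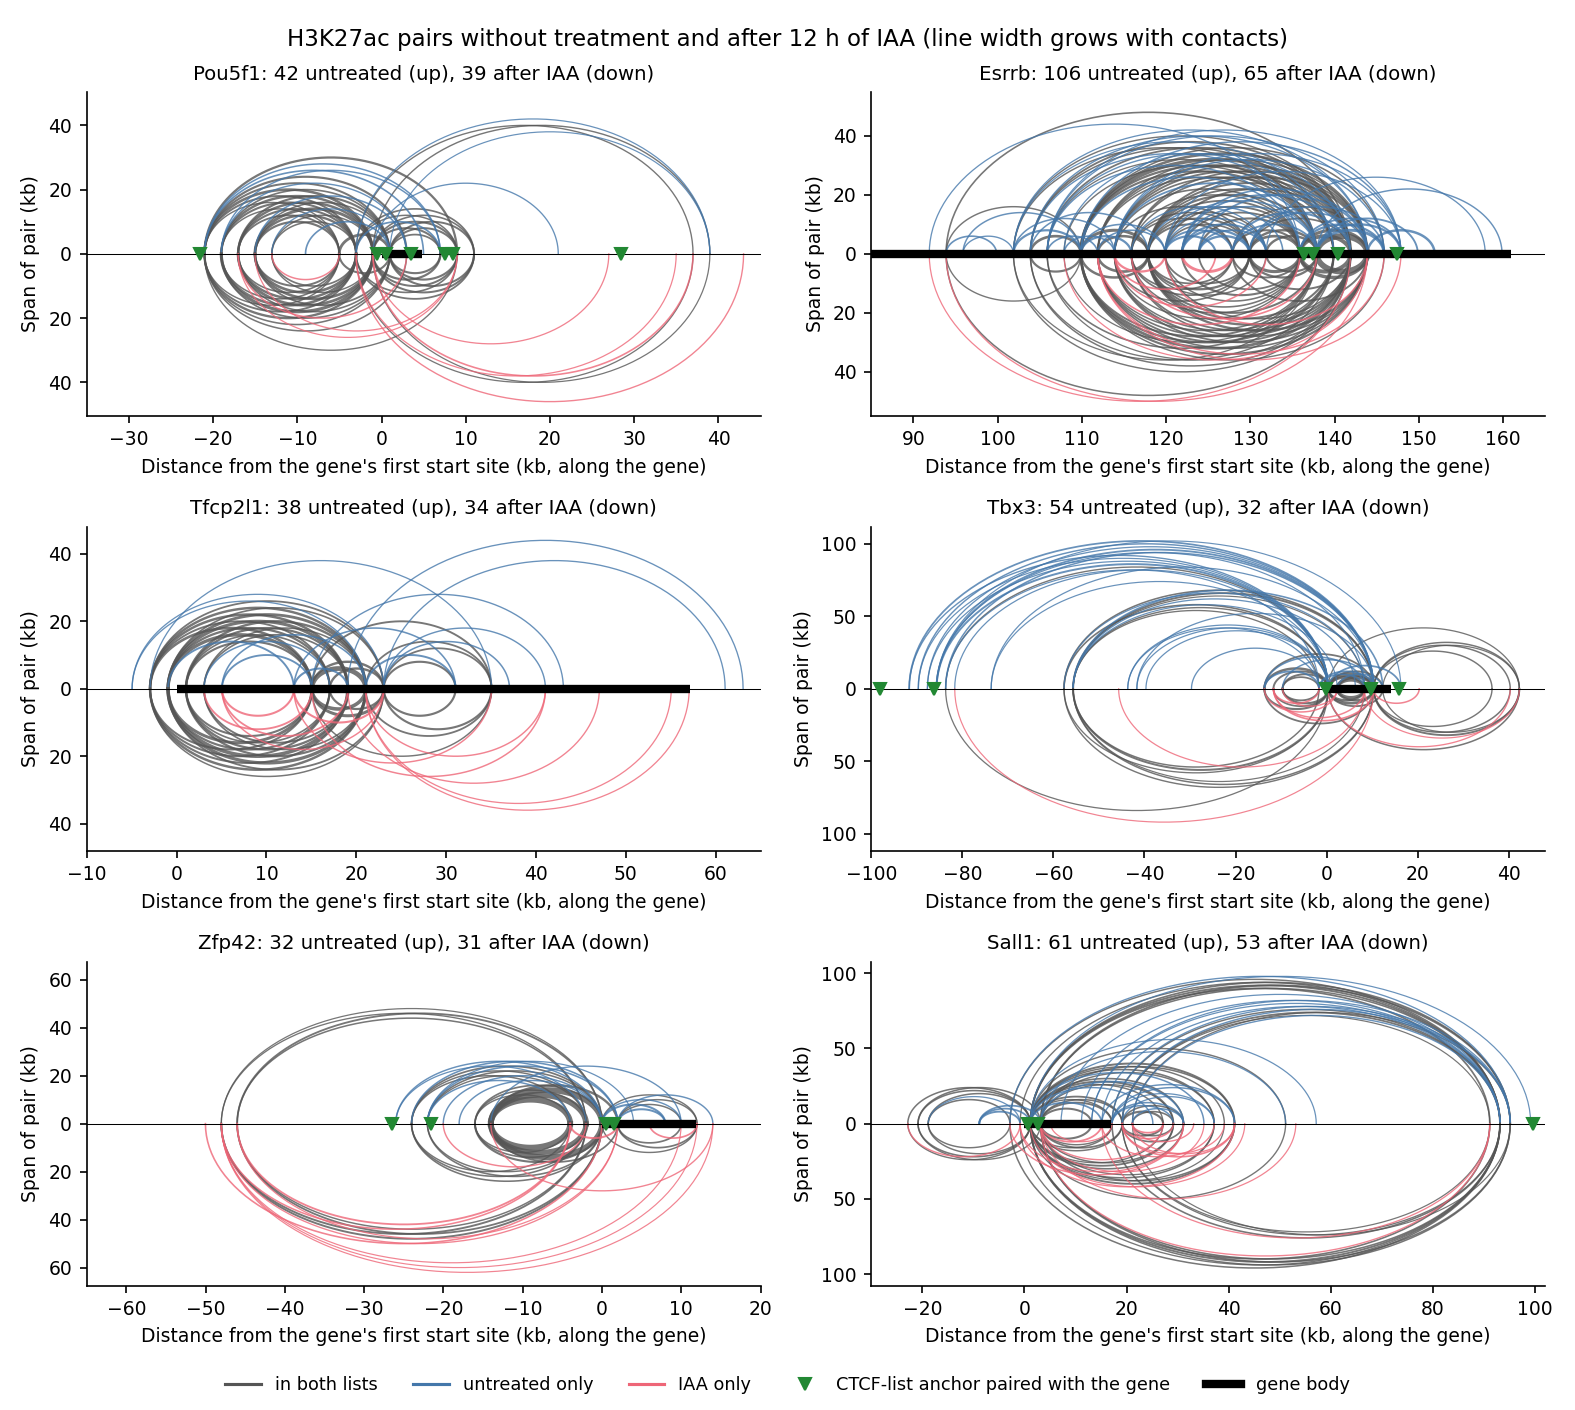
H3K27ac pairs of 6 members by distance from the gene's first start site (horizontal, kb along the gene), with untreated pairs drawn upward and IAA pairs downward, the height giving the span in kb and the line width growing with contacts. Grey arcs are in both lists and coloured arcs in 1; pairs that leave the plotted range are not drawn. The upstream arcs of Tbx3 beyond 80 kb are almost all drawn upward, the Zfp42 arcs near 48 kb are more numerous among those drawn downward, and the upstream arcs of Pou5f1 and the start-region arcs of Tfcp2l1 are nearly mirrored. Triangles mark CTCF-list anchors paired with the gene and the black bar is the gene body.

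Tfcp2l1 (chr1:118627945-118685168, plus strand, ENSMUSG00000026380.10), a factor downstream of LIF signalling, had no CTCF pair. Its start region, chr1:118622001-118634000, was joined to the intronic block chr1:118640001-118652000 by 22 untreated and 20 IAA pairs, and the 16 shared ones had 548 and 536 contacts. The top pair of both lists lay within the intronic block, between chr1:118642001-118644000 and chr1:118648001-118650000, with 94 and 66 contacts (log2 -0.48, -0.96 to -0.01, unadjusted p = 0.0397, adjusted p = 1, exact binomial test). It was also the only RAD21 pair of the gene, with 17 RAD21 contacts. Long pairs were fewer after IAA here: those of 300 kb or more went from 10 to 3. To the block chr1:119074001-119078000 near Gli2 there were 8 untreated pairs with 87 contacts in all, and 1 was listed after IAA with 9. On the other side of the gene, 2 pairs to a start site of Clasp1, at chr1:118388001-118390000, were listed only after IAA, with 11 and 10 contacts.

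Tbx3 (chr5:119670669-119684724, plus strand, ENSMUSG00000018604.18) had the lowest share called again among the genes with many pairs, and the difference lay upstream. The block chr5:119578001-119590000, outside protein-coding genes, had 14 untreated pairs with the Tbx3 window and 196 contacts, and 2 IAA pairs with 20. Coverage was lower after IAA in the bins of this block with Tbx3 pairs in both lists. It was 1895 and 1510 at chr5:119586001-119588000, and 1716 and 1541 at chr5:119588001-119590000. The part of coverage in the loss of pairs was not tested. The untreated-only pair with most contacts, 27, joined chr5:119584001-119586000 with the start-site bin chr5:119670001-119672000 over 86 kb, and lay on a CTCF pair of 14 contacts and on RAD21 pairs of 10 and 12. A nearer upstream block, chr5:119612001-119616000, had 10 pairs without treatment and 6 after IAA. It held the shared Tbx3 pair with the largest rise in ratio, to the start-site bin over 56 kb, with 14 and 28 contacts (log2 1.03, 0.06 to 2.07, unadjusted p = 0.0302, adjusted p = 1, exact binomial test). On the 1-kb bins of that pair lay Tbx3's strongest RAD21 pair, with 22 contacts, and no CTCF pair.

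Contacts inside Tbx3 were also lower. Between the start region and the 3′ block, 5 shared pairs had 261 untreated and 191 IAA contacts (log2 -0.42, -0.70 to -0.15). The pair from the start-site bin to chr5:119680001-119682000, the top untreated pair, had 71 and 40 (log2 -0.80, -1.40 to -0.22, unadjusted p = 0.00567, adjusted p = 0.597, exact binomial test). It lay on the strongest CTCF pair of the gene, with 33 contacts, and with scaling by the model totals its log2 ratio was -1.05 with an adjusted p of 0.0486 in the same test. The coverage of Tbx3's own bins was lower after IAA as well. Over 6 bins in both lists the median log2 ratio of raw coverage was -0.11 (lowest bin -0.22, highest bin 0.10). All 16828 bins in both lists had a median of 0.20. The part of coverage in the Tbx3 ratios was not tested. The start-site bin holds a CTCF anchor with a coverage of 5660 in the CTCF list and 5 CTCF and 9 RAD21 pairs, but no core match. CTCF pairs of the gene over 326 kb or more numbered 7 and spanned up to 905 kb; 4 ended in the bin chr5:119686001-119687000 just past its end, 2 in the start-site bin and 1 in chr5:119680001-119681000.

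Zfp42 (chr8:43295063-43306980, minus strand, ENSMUSG00000051176.6), a marker of the naive state, had the pair with most contacts of all members. It joined chr8:43310001-43312000, just upstream of the start site, with chr8:43320001-43322000, and had 254 untreated and 316 IAA contacts (log2 0.34, 0.10 to 0.59, unadjusted p = 0.00497, adjusted p = 0.589, exact binomial test). The pair from the start-site bin chr8:43306001-43308000 to the same upstream bin had 119 and 115. The stretch upstream of the RefSeq start is shown because it was the only one among the members' RefSeq promoters with a match to any of 3 motifs (ATGCAAAT, the octamer bound by OCT4; TCAAGGTCA, the ESRRB motif; GGGTGTGG, a KLF motif), searched on both strands.
Zfp42 promoter, 250 bases before the RefSeq start (GRCm38.p6), chr8:43307010-43307259, minus strand: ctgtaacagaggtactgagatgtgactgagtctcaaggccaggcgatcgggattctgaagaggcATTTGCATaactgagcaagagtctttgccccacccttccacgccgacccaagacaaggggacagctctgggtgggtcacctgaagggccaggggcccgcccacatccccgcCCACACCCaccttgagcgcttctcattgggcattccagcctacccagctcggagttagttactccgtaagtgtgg
The capitals mark the octamer, beginning 186 bases before the start, and the KLF motif, beginning 75 bases before it, both as their reverse complement. The octamer was in 1.60% of 32851 RefSeq promoters over the same length, the KLF motif in 3.20% and the ESRRB motif in 0.387%. RefSeq promoters were available for 7 of the members, 12 in all. Tbx3, Prdm14 and Sall4 had none and were not searched. Those of Esrrb belonged to the start sites at 86361117 and 86421644. The Esrrb start site at 86470117, with 15 untreated and 9 IAA pairs in its bin, was therefore not searched. A match is a description, not a site.

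More pairs of Zfp42 reached far upstream after IAA, while nearer ones were fewer. Between the gene region chr8:43292001-43312000 and the nearer block chr8:43320001-43334000 there were 21 untreated and 14 IAA pairs, with 810 and 733 contacts, and the 12 shared ones had 679 and 705. Between the gene region chr8:43292001-43312000 and the block chr8:43352001-43358000 there were 4 untreated and 12 IAA pairs, with 63 and 198 contacts. The 4 shared ones had 63 and 90 (log2 0.54, 0.06 to 1.03). The largest rise in ratio of any shared member pair was from the start-site bin to chr8:43354001-43356000 over 48 kb, with 10 and 26 contacts (log2 1.41, 0.31 to 2.62, unadjusted p = 0.00714, adjusted p = 0.655, exact binomial test). The coverage of that distant bin was 2167 and 3609, and that of its neighbour chr8:43352001-43354000 was 2225 and 3534. Over Zfp42's own 7 bins the median log2 ratio of raw coverage was 0.25. The part of coverage in these counts was not tested. Between the 2 regions lie the 2 upstream CTCF anchors of Zfp42, chr8:43328001-43329000 and chr8:43333001-43334000, each paired with the bins chr8:43305001-43306000 and chr8:43306001-43307000 of the gene with 8 to 16 contacts. The 3 H3K27ac pairs on these CTCF pairs had 18, 18 and 15 contacts without treatment, and 1 of them was called again, with 19.

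Sall1 (chr8:89027235-89044162, minus strand, ENSMUSG00000031665.7) had contacts with a series of downstream blocks and with 2 upstream ones. Upstream, the start region had 3 untreated pairs with chr8:89052001-89054000, with 22, 22 and 26 contacts, and 0 after IAA, and 6 untreated and 6 IAA pairs with chr8:89062001-89068000, 5 of them shared. The bin chr8:89042001-89044000 near its start was in 21 untreated and 16 IAA pairs, with 391 and 270 contacts. To the distant block chr8:88948001-88954000 the start region chr8:89036001-89048000 had 9 and 8 pairs, 7 of them shared with 135 and 126 contacts, while the 3′ end, chr8:89022001-89034000, had 11 and 5. The top untreated pair, chr8:89016001-89018000 with chr8:89024001-89026000, had 32 and 28 contacts. The largest fall in ratio was at the pair chr8:88950001-88952000 with chr8:89024001-89026000, with 23 and 12 (log2 -0.91, -2.05 to 0.16, unadjusted p = 0.0901, exact binomial test). Both CTCF pairs of Sall1, with 11 and 15 contacts, started from chr8:88944001-88945000 at the outer edge of the distant block, and the H3K27ac pair on 1 of them, with 9 untreated contacts, was not in the IAA list.

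The 3 genes with few pairs had 1 to 3 pairs in both lists. Prdm14 (chr1:13113457-13127163, minus strand, ENSMUSG00000042414.7) had pairs with 4 separate downstream sites outside protein-coding genes. The pairs to chr1:13084001-13086000 had 13 and 16 contacts without treatment and 14 and 12 after IAA, and the pair from that bin to chr1:13132001-13134000 was listed only after IAA, with 9. Those to chr1:13074001-13076000 (3 pairs, 26 contacts) and from chr1:13124001-13130000 to chr1:13092001-13096000 (4 pairs, 39 contacts) were not in the IAA list. Nor was the pair to the nearest site, chr1:13104001-13106000, which with 14 contacts was the strongest of the pairs found in 1 list. Prdm14 was enclosed by 10 CTCF pairs, the strongest over 82 kb between chr1:13052001-13053000 and chr1:13134001-13135000 with 59 contacts and 24 RAD21 contacts. Its own 2 RAD21 pairs started at the same left anchor, with 11 contacts each.

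Sall4 (chr2:168748332-168767943, minus strand, ENSMUSG00000027547.17) had 7 of its 11 untreated pairs at the intronic bin chr2:168764001-168766000, with 81 contacts, and 2 after IAA with 23. The coverage of this bin was 7642 and 7182. Its pair with chr2:168842001-168844000 over 78 kb, with 15 contacts and untreated only, lay on the gene's single CTCF pair of 20 contacts and RAD21 pair of 11. The pair with the next bin, chr2:168840001-168842000, was in both lists with 13 and 9 contacts. The nearer pairs, from the same intronic bin to chr2:168780001-168782000 and from the start-site bin to chr2:168778001-168780000, had 16 and 13 untreated and 14 and 17 IAA contacts.

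Nr5a2 (chr1:136842571-136960448, minus strand, ENSMUSG00000026398.14) had a bin within 2 kb of an annotated start site in all 7 untreated and both IAA pairs. The bin chr1:136952001-136954000, which holds the start site at position 136953630, was in 4 untreated pairs and 1 IAA pair. Its coverage was 5298 and 5396. Without treatment the top pair joined chr1:136948001-136950000 with chr1:136954001-136956000 by 21 contacts, and after IAA the top pair joined chr1:136946001-136948000 with chr1:136952001-136954000 by 23, each in 1 list and 1 bin apart. The pair in both lists had 17 and 13 contacts. The untreated-only pairs to chr1:136978001-136982000, with 28 contacts in all, and over 382 kb to a bin near Kif14, with 8, had no counterpart.

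Lin28a (chr4:134003330-134018841, minus strand, ENSMUSG00000050966.9) had 0 H3K27ac pairs but was paired in the CTCF list through 1 intronic bin, chr4:134013001-134014000. In 1 of its CTCF pairs this bin was joined with chr4:134078001-134079000 in Crybg2 over 65 kb with 16 CTCF contacts, where the model predicted 5.04. Neither Lin28a nor Zfp42 was enclosed by a CTCF or RAD21 pair, while 66.5% of all protein-coding genes were enclosed by a CTCF pair and 46.9% by a RAD21 pair. Sall4 with 29, Tbx3 with 27 and Pou5f1 with 20 were enclosed by the most CTCF pairs among the members.

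A list of 29 other genes of the pluripotency network was chosen with earlier results of these data known. Of these, 26 had untreated and 24 IAA pairs, 600 and 531 summed over genes, and 54.3% of the untreated ones were called again. Fewer pairs after IAA were listed at 16 of the 26, more at 8 and equally many at 2, and with lists of equal length 13 of 25 had fewer, 9 more and 3 equally many. Over all shared pairs 21 of 15551 had an adjusted p under 0.05 in the exact binomial test, 15 of them higher after IAA. With scaling by model totals 60 pass, 6 of them higher. Of 318 distinct shared pairs of this list, 2 passed without that scaling, both higher after IAA, and 0 lower. They joined 1 bin near Gdf3, which starts at position 122608001 of chromosome 6, with bins 54 and 94 kb away, the farther one at Nanog, with 39 and 82 contacts for the first and 54 and 116 for the second (log2 1.10 and 1.13), and were named after their values were seen.

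By the sum of absolute differences in log2(count + 1) over the 4 lists, the closest other protein-coding gene was Pml for Pou5f1 (distance 0.55), Fbxo36 for Esrrb (0.90), Mgat4e for Tfcp2l1 (0.50) and Slc25a39 for Tbx3 (0.83). For Zfp42 it was Ccdc106 (0.04), with 39, 35, 4 and 1 pairs in the untreated H3K27ac, IAA H3K27ac, CTCF and RAD21 lists beside Zfp42's 38, 35, 4 and 1. For Sall4 it was Gm45692 (0.13), for Prdm14 Zbtb38 (0.42) and for Sall1 Gdf3 (1.11). Gdf3 had 43 untreated and 61 IAA pairs, so that the nearest match of Sall1 had more pairs after IAA where Sall1 had fewer. The same held for Fbxo36 (103 and 110) beside Esrrb and for Mgat4e (38 and 39) beside Tfcp2l1. Pml, Slc25a39, Ccdc106, Gm45692 and Zbtb38 had fewer after IAA, like the members they matched.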

How the data were processed

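MNase HiChIP interaction lists of 4 groups were analysed, pooled over 9 libraries. Per the submitters' processing notes the build is mm10 and the tools were Trim Galore, BWA, MACS2 and deepTools, without roles or versions. The deposited contact and coverage values are whole-number counts that the authors did not normalise. The deposited lists also hold a predicted contact signal, a model probability given as a fraction between 0 and 1, and a p-value and q-value per pair, per the file headers. The largest q-value was 0.05. H3K27ac pairs needed a peak in 1 bin, CTCF and RAD21 pairs in both.

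Pairs were matched on identical bins, with 1-kb anchors assigned to 2-kb bins. The total contacts behind the authors' models were inferred as predicted contacts divided by model probability, with the median over pairs taken. This gave 12551236 untreated and 14629323 IAA H3K27ac contacts, 2839756 for CTCF and 1517698 for RAD21. Scaling by model totals rests on these inferred values. Intervals are 95% Wilson or exact binomial intervals. They measure counting error alone, and PCR copies without identifiers can make them too narrow. The Wilson intervals also treat pairs that share bins as independent, which can narrow them further. The binomial test was tested on simulated data: for IAA against untreated over 15551 pairs it recovered 4.00% of 200 pairs changed 2-fold and 74.0% of those changed 4-fold. So 2-fold changes of single pairs were mostly not detectable at this depth.

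Directly adjoining listed bins were joined into blocks. Named pairs are, per member, those with most contacts in each list, the largest rise and fall among shared pairs with at least 20 contacts, and the top pair of 1 list. Members and gene lists were chosen with earlier results of these data known. Blocks, bins and crossing pairs were chosen for description after their values were seen. Analyses used Python 3.11.15, pandas 2.3.3, NumPy 2.4.6, SciPy 1.17.1, pysam 0.24.0 and matplotlib 3.10.9. Alternatives covered the q-value, contacts, window, bin tolerance, list length and scaling. A CTCF anchor sequence and its pair are not reported here.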

Additional observations from a re-analysis of the deposited data

How the results depend on the processing

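No paired analysis was possible because each group has 1 list pooled over its replicates; for the same reason no replicate could be left out. Over all members, 58 results under an alternative stayed within their interval or within 1.5 times, and 17 did not. With bins within 2 kb of a start site only, the counts were 190 untreated and 138 IAA H3K27ac pairs, 16 CTCF and 16 RAD21 pairs, 55.8% of untreated pairs were called again, 76.8% of IAA pairs were also untreated and the summed log2 ratio was -0.08. The gene body alone left 25 RAD21 pairs, and 10 kb on each side gave 69 CTCF and 59 RAD21 pairs. A tolerance of 1 bin gave 78.9% called again, 87.1% also untreated, 13.2% on a CTCF pair and 10.4% on a RAD21 pair, against 65.7%, 75.9%, 13.1% and 13.2% of all pairs, so that the members' lower share on CTCF pairs depends on exact bins. Lists of equal length gave 57.5% called again, against 49.8% of all. Scaling by model totals gave a log2 ratio of -0.27, where the ratios of all pairs shift by -0.25, and 1 pair with an adjusted p under 0.05; over all shared pairs 60 then pass, 6 higher and 54 lower, against 15 and 6. Leaving out each gene in turn moved the summed log2 ratio between -0.05 and 0.00 and the share called again between 48.0% and 52.3%; the last was added after the data were seen, as were the members' counts in lists of equal length, 334 and 310. On single genes 425 alternatives stayed within those limits and 92 did not. For values that moved, the cause was not tested beyond what each setting does by construction. Depth limits single pairs, with median contacts of 13 and 14 in the H3K27ac lists.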
